A study of Mus musculus with 2 samples.

Results

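The inward rectifier, two-pore and calcium-activated potassium channel genes were read in the hippocampus of male 5xFAD/CAST mice. The family was defined by name alone, as the protein-coding genes whose symbols begin with Kcnj, Kcnk, Kcnma, Kcnmb, Kcnn, Kcnt or Kcnu followed by a number. This rule found 41 genes among 21978 protein-coding and 55536 annotated genes. They comprise 15 inward rectifiers (Kcnj), 14 two-pore channels (Kcnk), and 12 genes of the calcium- or sodium-activated channels, namely the BK pore gene Kcnma1 with its 4 beta subunits, 4 small- and intermediate-conductance genes, Kcnt1 and Kcnt2, and Kcnu1.

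The mice were adults of 8 to 10 months from a cross of 5xFAD with CAST, all under the label 5xFAD/CAST. The 5xFAD line carries human transgenes with familial Alzheimer mutations under the neuronal Thy1 promoter. Total RNA (300 ng) from tissue labelled as a layer of hippocampus was depleted of ribosomal RNA and sequenced in 2 strand-specific libraries with added ERCC spike-in RNAs. The labels call the libraries biological replicates 1 and 2 of 1 group and give both the same donor identifier, so the SD between them may be technical. Mice without the transgenes were not analysed here, and no value below is an effect of the genotype.

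Potassium channels let potassium ions leave or enter the cell and set the resting potential and the return from excitation. Inward rectifiers pass current more easily into the cell than out of it, and in the brain they include channels opened by G proteins in neurons and the Kir4.1 channel that buffers potassium in astrocytes. Two-pore channels carry the background leak that holds the resting potential, and BK and SK channels open when calcium rises and shape the spike and the pause after it. BK and SK channels are well known from hippocampal pyramidal cells, where they form the fast and the medium afterhyperpolarization.

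What these pores share is the selectivity filter, the loop that lets potassium pass and holds back sodium. It was searched in the coding sequence of the highest complete coding transcript of each gene (GENCODE M21, mm10), as 5 codons in a row. These were threonine (ACN) or serine (TCN, AGT or AGC), any codon (NNN), glycine (GGN), an aromatic residue or leucine, and glycine (GGN). The aromatic residue was tyrosine (TAT or TAC) or phenylalanine (TTT or TTC). Only the coding strand was read. Single-pore channels first follow, to show how alike the filter codons of members with different roles are. Capitals mark the 5 filter codons, with 9 bases on each side, and coordinates are mm10.
Kcnma1 (chr14:23528404-23528436, minus strand): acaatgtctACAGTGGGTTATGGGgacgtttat
Kcnj3 (chr2:55437618-55437650, plus strand): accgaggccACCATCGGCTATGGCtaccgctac
Kcnj6 (chr16:94832768-94832800, minus strand): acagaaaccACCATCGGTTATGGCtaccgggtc
Kcnj9 (chr1:172326175-172326207, minus strand): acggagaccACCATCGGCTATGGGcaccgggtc
Kcnj10 (chr1:172369293-172369325, plus strand): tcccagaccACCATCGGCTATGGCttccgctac
Kcnj11 (chr7:46099487-46099519, minus strand): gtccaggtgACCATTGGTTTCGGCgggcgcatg
Kcnj13 (chr1:87389012-87389044, minus strand): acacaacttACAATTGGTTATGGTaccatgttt
Kcnt1 (chr2:25894358-25894390, plus strand): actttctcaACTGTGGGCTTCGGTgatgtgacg

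A filter was found exactly once in 22 of the 23 pore genes outside the two-pore class. In 18 of them the aromatic residue was tyrosine and in 4 phenylalanine. The exception was Kcnu1, whose highest transcript, Kcnu1-202, codes for 381 residues and held no match. The 4 BK beta subunits, which have no pore of their own, held none, but that of Kcnmb2 was searched only in Kcnmb2-206, a transcript of 36 codons. For comparison, 5.29% of 21526 protein-coding genes with a complete coding sequence held at least 1 match and 0.534% held 2 or more.

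Each two-pore subunit carries a pair of filters, so 2 subunits make a channel. The 3 highest two-pore genes are shown with both, the first from pore 1 and the second from pore 2. The coordinates of the first one also span the intron between the 2 exons that hold it.
Kcnk1 filter 1 (chr8:125995799-126025028, plus strand): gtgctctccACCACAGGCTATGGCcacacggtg
Kcnk1 filter 2 (chr8:126025320-126025352, plus strand): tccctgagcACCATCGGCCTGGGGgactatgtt
Kcnk2 filter 1 (chr1:189258882-189295609, minus strand): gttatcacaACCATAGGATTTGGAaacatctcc
Kcnk2 filter 2 (chr1:189256572-189256604, minus strand): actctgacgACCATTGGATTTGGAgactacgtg
Kcnk9 filter 1 (chr15:72513028-72546012, minus strand): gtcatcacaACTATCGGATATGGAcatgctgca
Kcnk9 filter 2 (chr15:72512710-72512742, minus strand): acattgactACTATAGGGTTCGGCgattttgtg

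Of 14 two-pore genes, 12 held 2 matches. The window around the first match crossed an exon junction in 13 of 14 genes, and the window around the second lay within 1 exon in all 12. In the other pore genes all 22 windows lay within 1 exon. In the second filter the fourth codon was that of phenylalanine in 10 genes and of leucine in 2, Kcnk1 and Kcnk6. The genes with a single match were Kcnk7, where it held leucine and lay within 1 exon, and Kcnk10. The Kcnk7 match was read in Kcnk7-203, of 233 codons, a gene with 0 and 1 counts. It is counted above as a first match, and which of the 2 filters it is was not tested. The highest Kcnk10 transcript, Kcnk10-203, codes for 241 residues and held the first filter only.

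Of the 41 genes, 28 (68.3%) reached 1 TPM (a transcript level scaled for length and depth) in both libraries, against 60.4% of all protein-coding genes. By class these were 10 of 15 inward rectifiers, 9 of 14 two-pore channels and 9 of 12 calcium- or sodium-activated genes. Another 2 genes passed in 1 library only, Kcnj13 in replicate 1 and Kcnj8 in replicate 2. The other 11 stayed below 1 TPM in both. The family median was 6.73 and 5.99 TPM in replicates 1 and 2, against 4.42 and 4.26 TPM over all protein-coding genes and 13.3 and 14.1 TPM over the 40 voltage-gated potassium channel genes, 33 of which passed in both libraries.

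Depth was 26128897 expected counts in replicate 1 and 28689423 in replicate 2, of which the 41 genes held 0.144% and 0.143%. For a gene with 0 counts the upper limit, set at 3 counts and covering counting error only, was 0.115 CPM in replicate 1 and 0.105 CPM in replicate 2. Hippocampal markers were present, with summed TPM of 86.6 and 99.7 for 3 dentate granule cell genes, 215 and 230 for 3 CA1 genes and 77.3 and 96.1 for 3 CA3 genes. Markers of choroid plexus (summed TPM 1188 and 182) and of striatum (116 and 38.4) were lower in replicate 2 for every gene of both lists, 6 of 6 and 5 of 5. These are bulk samples, in which fewer cells of a type and less RNA per cell cannot be told apart.

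**Figure D1:**
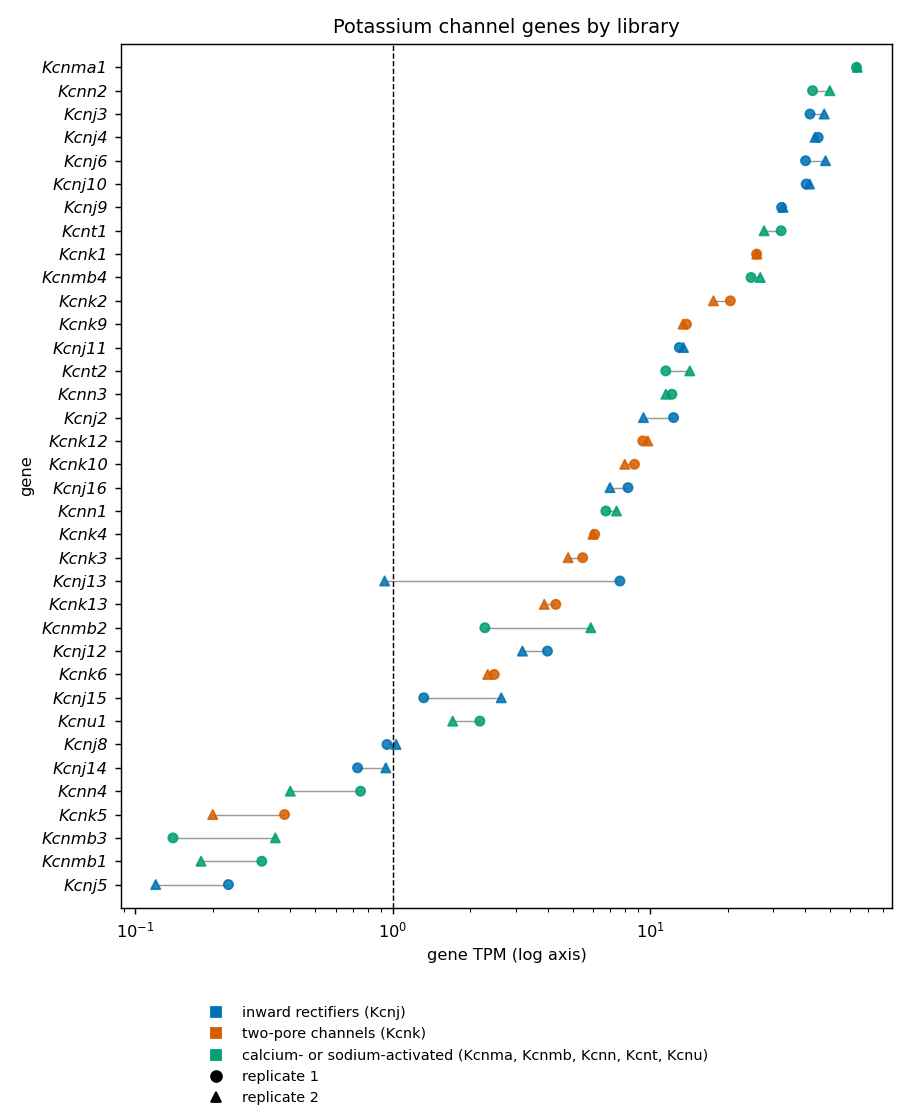
TPM of 36 channel genes with counts in both libraries (log axis), with circles for replicate 1, triangles for replicate 2 and colours for the class; the dashed line marks 1 TPM. Kcnma1 stands apart at the top near 63 TPM, the symbols of most genes above 5 TPM nearly touch, and those of Kcnj13 and Kcnmb2 lie far apart.

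Inward rectifiers held 45.6 ± 0.0449% of the family's summed TPM (SD, n = 2), calcium- or sodium-activated genes 37.2 ± 0.913% and two-pore channels 17.2 ± 0.868%. The single largest subgroup was the G protein-gated Kir3 channels with 22.1 ± 1.49%. By mean gene TPM, SK and IK genes held 11.98 ± 0.723%, the BK pore 11.6 ± 0.0845%, the classical Kir2 genes 10.9 ± 0.751% and the potassium transport genes of the Kir4, Kir5, Kir1 and Kir7 types 9.99 ± 0.820%. The order of these 4 is not firm: in replicate 1 the BK pore (11.64%) was above SK and IK (11.47%), and on coding transcripts alone SK and IK held 9.52%, the least of the 4. In both libraries the Kir3 share lay above those of all other subgroups.

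The G protein-gated channels Kcnj3 (GIRK1), Kcnj6 (GIRK2) and Kcnj9 (GIRK3) stood close together. They assemble into tetramers that open when an inhibitory receptor frees the beta-gamma subunits of its G protein. Kcnj3 stood at 41.8 and 47.4 TPM in replicates 1 and 2 (values are given in this order throughout), and Kcnj6 at 40.2 and 48.0 TPM. Kcnj9 stood at 32.4 and 32.8 TPM, below both of them in either library. The log2 ratio of Kcnj3 over Kcnj6 was 0.02 ± 0.05 (SD, n = 2) and changed sign between the libraries. It was 0.12 ± 0.02 on alignment-free TPM and 0.11 ± 0.05 on coding transcripts alone, where Kcnj3 was higher in both libraries (41.8 against 37.7 and 47.4 against 45.2 TPM). Kcnj3 exceeded Kcnj9 by 0.45 ± 0.12 and Kcnj6 exceeded Kcnj9 by 0.43 ± 0.17 on the log2 scale. Kcnj5 (GIRK4), the partner of GIRK1 in the heart, stood at only 0.23 and 0.12 TPM, from 16 and 11 counts.

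Of the genes known to drive these channels, all 5 listed G protein beta and gamma genes and all 9 listed receptors passed 1 TPM in both libraries. Over all protein-coding genes 60.4% did so, and this share applies to the lists below as well. The lists hold genes picked for a known role, so these counts are a description only. The G protein genes were led by Gnb1 at 294 and 298 TPM, Gnb2 at 232 and 262 TPM and Gng2 at 98.3 and 122 TPM. Among the receptors the GABA-B subunits Gabbr1 (263 and 294 TPM) and Gabbr2 (69.5 and 78.0 TPM) and the adenosine A1 receptor Adora1 (69.2 and 84.7 TPM) stood highest. The regulators that speed closing or move the channels in the cell were led by Gnb5 (59.1 and 59.5 TPM), Snx27 (46.0 and 41.8 TPM) and Rgs7 (32.4 and 33.4 TPM). Each of these named genes, the 3 highest of its list, exceeded 30 TPM in both libraries. Others were lower: the median of the 9 receptors was 6.58 and 7.81 TPM, and the regulator Rgs6 stood at 8.56 and 4.06 TPM.

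The classical inward rectifiers of the Kir2 type hold the resting potential near that of potassium. Kcnj4 (Kir2.3) stood at 44.9 and 43.7 TPM and was the highest of them. Kcnj2 (Kir2.1) stood at 12.3 and 9.42 TPM, and Kcnj12 (Kir2.2) at 3.99 and 3.19 TPM. In both libraries the order was thus Kcnj4, Kcnj2, Kcnj12, with no overlap. Kcnj14 (Kir2.4) stayed below 1 TPM, at 0.73 and 0.94 TPM.

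Kcnj10 encodes Kir4.1, the main potassium channel of astrocytes, and stood at 40.4 and 41.6 TPM. Its partner Kcnj16 (Kir5.1), which forms mixed channels with it, stood at 8.20 and 6.98 TPM. The log2 ratio of Kcnj10 over Kcnj16 was 2.44 ± 0.20 (SD, n = 2), or 5.42-fold. All 5 listed astrocyte genes that work beside Kir4.1 passed 1 TPM, led by the glutamate transporter Slc1a2 at 790 and 808 TPM, the gap junction gene Gja1 at 117 and 116 TPM and the water channel Aqp4 at 71.7 and 69.1 TPM. The other transport genes were low. Kcnj15 (Kir4.2) stood at 1.32 and 2.64 TPM, and the kidney channel gene Kcnj1 had 0 counts in both libraries.

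ATP-sensitive channels couple metabolism to excitability and are built from a Kir6 pore and a sulfonylurea receptor. The pore gene Kcnj11 (Kir6.2) stood at 13.0 and 13.5 TPM, and Kcnj8 (Kir6.1) at 0.95 and 1.03 TPM. The receptor gene Abcc8 (SUR1) stood at 18.3 and 18.9 TPM, and Abcc9 (SUR2) at 2.17 and 1.83 TPM. For the pore and for the receptor 1 gene was thus well above the other, by a log2 ratio of 3.74 ± 0.05 for the pores and 3.22 ± 0.21 for the receptors (SD, n = 2). The first fell to 2.84 with 1 TPM added to each value and the second to 2.58 on coding transcripts alone. Kcnj8 is known from vascular mural cells and Abcc9 likewise, and all 5 mural cell markers passed 1 TPM in both libraries, with a summed level of 84.2 and 74.9 TPM.

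**Figure D2:**
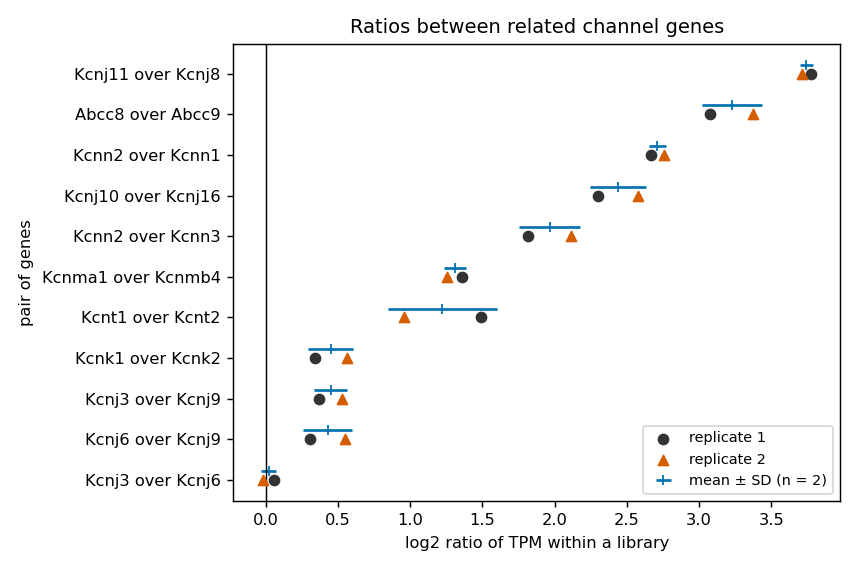
Log2 ratio of TPM between related genes within each library (circles, replicate 1; triangles, replicate 2) with the mean ± SD (n = 2) in blue above them; the vertical line marks equal levels. The first gene was higher in both libraries in 10 of 11 pairs, and Kcnj3 over Kcnj6 straddles 0. Which gene comes first was set when the pairs were listed, so this count is a description only.

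In the two-pore class Kcnk1 (TWIK-1) led with 25.92 and 25.96 TPM. Kcnk2 (TREK-1), a channel opened by stretch, lipids and warmth, followed with 20.5 and 17.6 TPM. The log2 ratio of Kcnk1 over Kcnk2 was 0.45 ± 0.16 (SD, n = 2). The acid-sensitive channel Kcnk9 (TASK-3) stood at 13.8 and 13.4 TPM. On coding transcripts alone Kcnk2 stood at 15.4 and 12.4 TPM, which is below Kcnk9 in replicate 2. Counts alone would order these genes differently, since Kcnk9 had 3061 and 3172 counts on an effective length of 12200 bases, while Kcnk1 had 948 and 1074 counts. The other TASK gene above 1 TPM, Kcnk3 (TASK-1), stood at 5.47 and 4.80 TPM.

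Kcnk12 (THIK-2) stood at 9.36 and 9.79 TPM and Kcnk13 (THIK-1), known as a microglial channel, at 4.30 and 3.88 TPM. The remaining TREK-type genes were Kcnk10 (TREK-2) at 8.69 and 7.97 TPM and Kcnk4 (TRAAK) at 6.09 and 5.99 TPM. Kcnk6 (TWIK-2) stood at 2.48 and 2.34 TPM. These 5 genes thus differed by less than 1 TPM between the libraries. Kcnk5 had 12 and 13 counts and Kcnk7 0 and 1, and Kcnk15, Kcnk16 and Kcnk18 had none in either library. All 4 listed partners of two-pore channels passed 1 TPM, led by the 14-3-3 genes Ywhaz (480 and 534 TPM) and Ywhab (186 and 204 TPM) and the anchoring protein Akap5 (27.5 and 26.1 TPM).

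Kcnma1, the pore of the BK channel, which opens to calcium and depolarization together, was the highest of the 41 genes at 63.3 and 63.8 TPM. It lay above 93.0% and 92.7% of protein-coding genes. Kcnmb4, the neuronal beta subunit that slows BK gating, stood at 24.7 and 26.8 TPM, and the log2 ratio of Kcnma1 over Kcnmb4 was 1.31 ± 0.08 (SD, n = 2). Kcnmb2, the beta subunit that inactivates BK channels, stood at 2.28 and 5.88 TPM. Kcnmb1, the smooth muscle subunit, and Kcnmb3 stayed at or below 0.35 TPM. Of the 4 gamma subunit genes 1 passed 1 TPM, Lrrc55 at 7.71 and 6.82 TPM. Lrrc38 (0.52 and 0.35 TPM) and Lrrc26 (0 and 0.05 TPM) did not, and Lrrc52 had 0 counts. Crbn, whose product cereblon binds the BK channel, stood at 43.3 and 43.5 TPM.

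SK channels open to calcium alone, through calmodulin bound to each subunit. Kcnn2 (SK2) stood at 42.8 and 49.9 TPM, Kcnn3 (SK3) at 12.2 and 11.5 TPM and Kcnn1 (SK1) at 6.73 and 7.40 TPM. By gene TPM this order held in both libraries without overlap. On coding transcripts alone Kcnn3 (6.38 and 6.40 TPM) and Kcnn1 (5.67 and 6.90 TPM) overlapped, and Kcnn1 was higher in replicate 2. Kcnn2 exceeded Kcnn3 by 1.97 ± 0.21 and Kcnn1 by 2.71 ± 0.06 on the log2 scale (SD, n = 2). Kcnn4, the intermediate-conductance channel of blood and epithelial cells, stood at 0.75 and 0.40 TPM. Calmodulin genes were far higher than any channel gene, with Calm2 at 799 and 908 TPM and Calm3 at 673 and 768 TPM.

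The sodium-activated channels Kcnt1 (Slack) and Kcnt2 (Slick) stood at 32.3 and 27.7 TPM and at 11.5 and 14.3 TPM. The log2 ratio of Kcnt1 over Kcnt2 was 1.22 ± 0.38 (SD, n = 2), the widest spread of the 11 ratios. Kcnu1 (Slo3), a channel of sperm, stood at 2.18 and 1.71 TPM from 41 and 35 counts. Fmr1, an RNA-binding protein gene whose product binds Slack, stood at 23.6 TPM in both libraries.

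In the order of mean TPM of the 28 genes above 1 TPM, 11 of the 27 neighbouring pairs did not overlap between genes across the libraries and 16 did. Kcnma1 was above all others in both libraries. The next 5, Kcnn2, Kcnj3, Kcnj4, Kcnj6 and Kcnj10, each overlapped the next of these 5 in order, with means from 46.3 down to 41.0 TPM. Below them Kcnj9, Kcnt1 and Kcnk1 were each separated from the next gene above.

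Gene TPM counts all transcripts of a gene, including those that code for no full protein. For the 21 genes at or above 5 TPM in both libraries, the median share held by coding transcripts was 94.6%, and 13 genes were above 90%. Only Kcnt1 lay below 50%, against 11.2% of the 10454 protein-coding genes at the same level, whose median share was 85.8%. The leading transcript was annotated as coding for 19 of the 21 genes, Kcnt1 and Kcnk2 being the others, and it was the same in both tables and both libraries for 17. It differed between tables or libraries in Kcnn2, Kcnk2, Kcnj16 and Kcnk4. The leading transcript held a median of 75.8 ± 6.83% (SD, n = 2) of gene TPM. For Kcnj4, Kcnj10, Kcnj2, Kcnk9 and Kcnk12, with 1 annotated transcript each, the same leading transcript and a share of 100% were fixed in advance.

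Kcnt1 is the clearest case. Its coding transcripts held 6.79 of 32.3 TPM in replicate 1 and 5.57 of 27.7 TPM in replicate 2, or 20.6 ± 0.665% (SD, n = 2). Transcripts that retain an intron held 69.4 ± 1.62%, led by Kcnt1-206 with 11.6 and 7.24 TPM, and 57.3 ± 0.662% in the alignment-free table. Counted on coding transcripts alone, Kcnt1 moved from rank 8 to rank 20 among the 41 genes, and its log2 ratio to Kcnt2 turned to -1.03 ± 0.45. The alignment-free table gave the same leading transcript and a coding share of 23.1 ± 0.855%.

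Retained introns also held 45.9 ± 2.19% of Kcnn3 TPM and 19.3 ± 2.96% of Kcnn2 TPM (SD, n = 2). Kcnn3 on coding transcripts stood at 6.38 and 6.40 TPM, and Kcnn2 at 29.97 and 35.1 TPM. In Kcnk2 the leading transcript depended on the table. It was Kcnk2-203, annotated for nonsense-mediated decay, with 24.8% and 29.6% in the alignment-based table, and the coding Kcnk2-206 with 33.0% and 36.9% in the alignment-free one. Kcnma1 had 38 annotated transcripts, led by Kcnma1-205 with 52.3% and 58.4%. By contrast, Kcnj4, Kcnj10, Kcnj2, Kcnk9 and Kcnk12 had a single annotated transcript each.

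**Figure D3:**
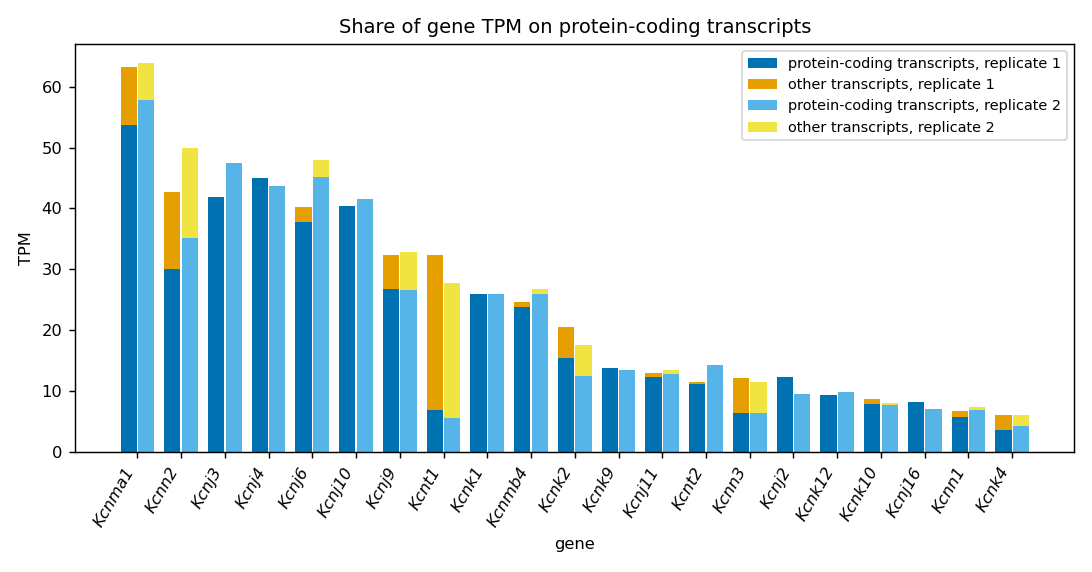
Gene TPM of the 21 genes at or above 5 TPM in both libraries, as stacked bars from 0 for protein-coding transcripts (blue) and all others (orange or yellow), with replicate 1 left and replicate 2 right. Kcnt1 is the one gene whose bar is mostly other transcripts, while Kcnj3, Kcnj4, Kcnj10 and Kcnk1 have none.

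The libraries were then compared gene by gene, to see which channel genes vary between these samples. The comparison used log2 ratios of replicate 2 over replicate 1 after TMM scaling of expected counts, on the 31 of 41 genes with a mean of at least 20 counts. Only Kcnj13 was more than 2-fold apart, 1 of 31 genes against 1.98% of all 16971 genes tested. Counting error was then tested with a two-sided exact conditional binomial test, adjusted by Benjamini-Hochberg over all 16971 genes. Of the 31 genes, 9 passed the threshold of 0.05, against 18.3% of all genes. Of these, 4 were higher in replicate 2 (9.7% of all genes) and 5 in replicate 1 (8.64%). The test compares 2 libraries and no conditions. The median absolute log2 ratio was 0.17 for the 31 genes and 0.12 for all genes.

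Higher in replicate 2 were Kcnma1 (log2 ratio 0.10, from 8518 to 9953 counts), Kcnj3 (0.24, from 3258 to 4183), Kcnj6 (0.22, from 1875 to 2383) and Kcnt2 (0.31, from 830 to 1124). Excitatory neuron markers lay the same way, with a median log2 ratio of 0.26 and 4 of 4 genes higher in replicate 2, and their part in these differences was not tested. Higher in replicate 1 were Kcnt1 (-0.53, from 2308 to 1745 counts), Kcnj2 (-0.42, from 1195 to 975), Kcnk2 (-0.26, from 946 to 862), Kcnk3 (-0.29, from 368 to 328) and Kcnj13. Endothelial markers (median log2 ratio -0.27, 4 of 4 lower in replicate 2, 3 beyond counting error) lay the same way. So did microglial markers (-0.09, 4 of 4 lower, 2 beyond) and oligodendrocyte markers (-0.03, 4 of 4 lower, 1 beyond). The choroid plexus and striatum lists were lower for every gene as well. Mural cell markers (-0.27) were split, with 3 of 5 lower, all 3 beyond counting error, and 2 higher, Rgs5 (0.13) and Higd1b (0.28). The part of all these markers in the differences was not tested. Of the Kcnt1 counts, those of the intron-retaining Kcnt1-206 went from 1371 to 917 and those of the coding Kcnt1-201 from 576 to 535. The call of Kcnk3 had an adjusted p of 0.049 in the exact test and was lost under 5 other settings. Scaling by the spike-ins moved the median log2 ratio of all genes from 0.00 to 0.27. With it 20 channel genes were beyond counting error, 17 of them higher in replicate 2, and Kcnk2 turned to 0.0044. No share of all genes is given for this scaling, so these counts are not read as particular to channel genes.

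**Figure D4:**
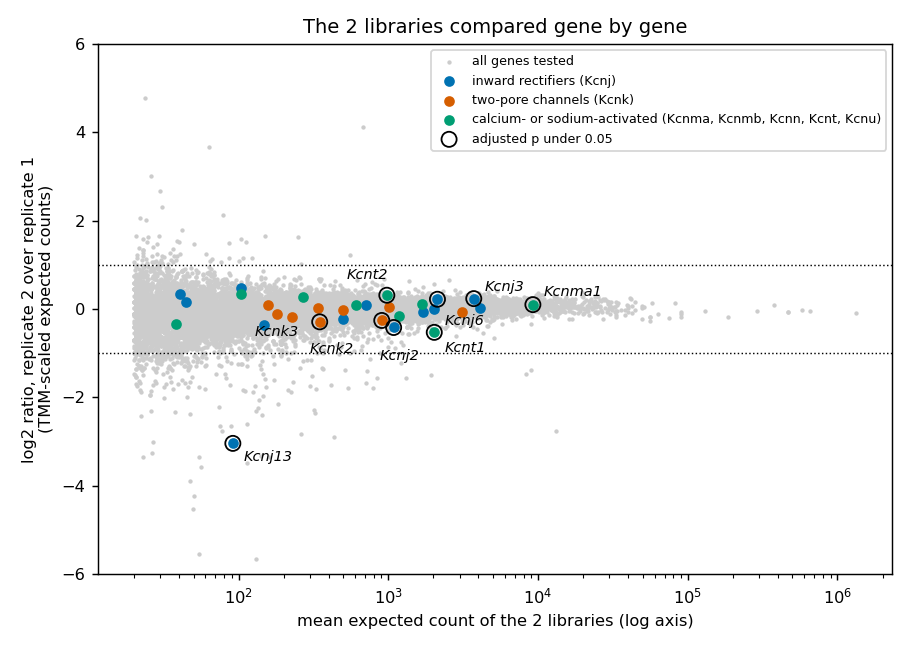
Log2 ratio of replicate 2 over replicate 1 against the mean expected count (log axis) for all 16971 genes tested (grey) and the 31 channel genes (coloured by class), with black rings at adjusted p under 0.05 in the exact binomial test and dotted lines at 2-fold. Kcnj13 lies at -3.04, and the other channel genes lie within the dotted lines.

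Kcnj13 encodes Kir7.1, a potassium channel of transporting epithelia such as the choroid plexus and the retinal pigment epithelium. Its level was 7.63 TPM in replicate 1 but 0.93 TPM in replicate 2, from 162 and 21 counts. The log2 ratio was -3.04, with an adjusted p of 9e-29 in the exact binomial test. The 6 choroid plexus markers moved with it, all more than 2-fold lower in replicate 2, with a median log2 ratio of -2.76. Among them Folr1 stood at 10.7 and 1.43 TPM and Kcne2, a potassium channel subunit of that epithelium, at 2.70 and 0.52 TPM. None of the 6 was at 0 in either library. Their part in the Kcnj13 difference was not tested. Of the 1270 exon bases of Kcnj13, 49.1% are overlapped on the opposite strand by exons of Gigyf2, which had 2485 and 2811 counts. The quantifier's SD of the Kcnj13 count was 0 in both libraries. For Kcnk4, whose exons overlap those of Catsperz on the same strand, it was 2.58 and 2.48. No source states if strand entered the counting, and whether Gigyf2 reads were counted for Kcnj13 was not tested.

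**Figure D5:**
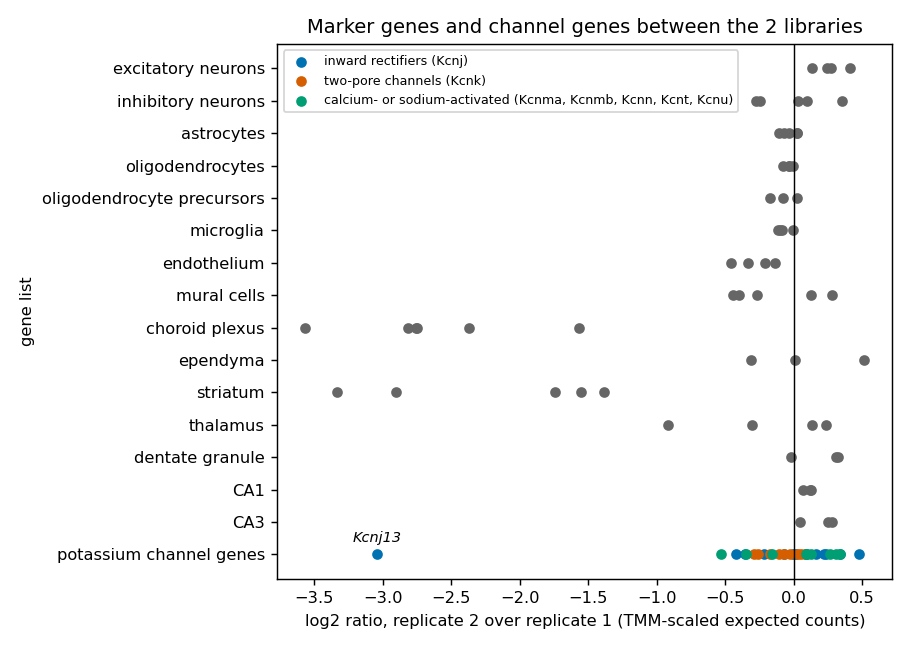
Log2 ratio of replicate 2 over replicate 1 (TMM-scaled expected counts) for each marker gene, in rows by cell type or region, and for the 31 channel genes in the bottom row (coloured by class). Choroid plexus and striatum markers lie left of -1, where Kcnj13 is the one channel gene.

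Striatal markers were likewise lower in replicate 2 (median log2 ratio -1.74, 5 of 5 genes). The channel genes' partners with the widest gaps were the dopamine D2 receptor Drd2, at 5.14 and 1.33 TPM, and the mu opioid receptor Oprm1, at 4.12 and 1.51 TPM. Both can open GIRK channels. They were the 2 of 35 tested partners more than 2-fold apart, against 1.98% of all genes. In all, 11 of the 35 partners were beyond counting error and higher in replicate 2 (9.7% of all genes), and 6 were higher in replicate 1 (8.64%). The part of the striatal markers in these gaps was not tested.

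Among the genes at or above 1 TPM in both libraries, TPM moved furthest beyond counts in Kcnmb2 and Kcnj15. Smaller gaps of this kind occurred in other genes, such as Kcnn2 (log2 ratio 0.22 in TPM, 0.12 in counts). In Kcnt1 counts moved more than TPM, with log2 ratios of -0.53 and -0.22, and its effective length went from 3942 to 3251 bases. Kcnmb2 went from 2.28 to 5.88 TPM, a log2 ratio of 1.37, while its counts went from 87 to 120, a log2 ratio of 0.34 with an adjusted p of 0.288 in the exact binomial test. Its effective length went from 2106 to 1054 bases, as the short transcript Kcnmb2-206, of 36 codons, took 17.2 counts and 3.73 TPM in replicate 2 against 1.06 counts and 0.24 TPM in replicate 1. The long Kcnmb2-201 stood at 1.70 and 1.82 TPM. Kcnj15 showed the same on a smaller scale, with a log2 ratio of 1.00 in TPM and 0.48 in counts. The difference in Kcnmb2 TPM thus rests on few reads of 1 short transcript.

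The alignment-free quantification gave these genes about as many more counts as it gave all genes. Over the 25 channel genes with at least 100 counts, the median ratio of alignment-free to alignment-based counts was 1.14 in replicate 1 and 1.13 in replicate 2, against 1.15 and 1.14 over 11897 protein-coding genes. The highest of the 25 was Kcnk6, at 1.47 and 1.36. Below 100 counts the ratio reached 3.24 and 4.09 for Kcnj5.

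The quantifier's SD of the count was 0 in both libraries for 39 of 41 genes, the exceptions being Kcnk4 and Kcnj14. Kcnj1, Kcnk15, Kcnk16 and Kcnk18 had 0 counts in both libraries, so for them this says nothing about sharing. Such an SD does not name the gene that shares the reads, which may lie outside the family. The share of all genes with an SD of 0 is not given here, so this count is not read as particular to channel genes. Kcnk4 shares 587 exon bases on the same strand with Catsperz. Of 820 pairs of genes, 71 shared an exact run of at least 20 bases in any transcript, and the longest run was 78 bases, between Kcnj15 and Kcnj16. In the genome 5 pairs of these genes are neighbours. In the pair Kcnj9 and Kcnj10 on chromosome 1, 11891 bases apart and on opposite strands, both stood above 30 TPM, one a neuronal and the other an astrocyte channel. In the pair Kcnj6 and Kcnj15 on chromosome 16, 259856 bases apart, Kcnj6 stood above 40 TPM and Kcnj15 below 3 TPM.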

How the data were processed

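Total RNA from 2 libraries of 1 group was quantified by the authors. According to the deposited notes, the tables use mm10 and GENCODE M21, 1 set made from transcriptome alignments and 1 without alignment. No aligner or quantifier is named in the sources used here. Deposited expected counts are the authors' estimated reads, deposited TPM and FPKM values were divided by length and depth by the authors, and the deposited percent is a transcript's share of gene TPM. Levels are TPM. Expected counts were rounded, scaled by TMM (edgeR 4.0.16, R 4.3.3) or, as an alternative, by DESeq2 1.42.0 size factors, and compared by an exact conditional binomial test (scipy 1.17.1) on genes with a mean of at least 20 counts, with a prior count of 0.5 in ratios. The test was also run on simulated counts that held only counting error and planted changes. That run does not show how the test behaves where libraries differ by more than counting error. Groups, lists and named genes followed one rule: every gene found by symbol is accounted for, values are given for those at 1 TPM in both libraries, and the 3 highest partners per list are named, except items that are not reported here. The members and lists were chosen with earlier results of these data known. The alternatives and what they change are given at the end.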

Additional observations from a re-analysis of the deposited data

How the results depend on the processing

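The count of detected genes ranged from 26 to 31 over other thresholds and tables (28 as reported) and was 29 without either replicate. The family median was 4.36 in FPKM and 5.62 TPM on coding transcripts only, and 5.99 to 6.73 TPM without 1 replicate. The inward rectifier share was 45.2% with posterior mean TPM, 44.5% alignment-free and 50.3% on coding transcripts (45.5 to 45.6% without 1 replicate), and that of calcium- or sodium-activated genes 38.8% alignment-free and 31.6% on coding transcripts (36.6 to 37.9%). Without 1 replicate the two-pore share was 16.6 to 17.8% (18.1% on coding transcripts with both) and the leading share 71.0 to 80.7%. The pairs with the first gene higher, in the order in which they were listed, then numbered 10 to 11. Kcnt1 over Kcnt2 reversed to -1.03 on coding transcripts alone, since most Kcnt1 TPM is on other transcripts. Kcnj11 over Kcnj8 fell to 2.84 with TPM + 1, and Abcc8 over Abcc9 to 2.58 on coding transcripts. Spike-in scaling gave 20 genes beyond counting error, with a median log2 ratio of all genes of 0.27 in place of 0.00, and turned Kcnk2 to 0.0044. The share of all genes called with this scaling is not given here. Genes more than 2-fold apart numbered 3 with no count filter (Kcnj13, Kcnmb3 and Kcnk7), and 2 (Kcnj13 and Kcnmb2) by ratios of TPM + 0.1 or, in a setting chosen after seeing the data, of coding TPM + 0.1. Kcnk3 had an adjusted p in the exact test of 0.061 with DESeq2 size factors, 0.89 with spike-ins, 0.052 at 10 counts, 0.075 unfiltered and 0.14 alignment-free. The alignment-free ratio was 1.13 at 500 counts and 1.13 to 1.14 without 1 replicate. No paired analysis was possible because there is only 1 group. Genes with few counts, such as Kcnj5 and Kcnmb3, are limited by depth.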
